A study of Mus musculus with 10 samples.

Results

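The 2 arrays of LA replicate 2, from one culture number of mouse 3T3-L1 adipocytes sampled at 8 h and 12 h, were compared with the 4 LA arrays of replicates 3 and 4 taken at the same times. They are 2 of 10 arrays in the series. The arrays were picked by their labelled replicate number. Dpt, Tmem45a and Scd1 were given with them as markers, though Scd1 did not separate the cultures. The comparison itself was picked because values of these arrays were already known to differ. The differences between replicate 2 and replicates 3 and 4 are therefore given as a description, with no test read from them. Only the change from 8 h to 12 h, which did not enter that choice, was tested.

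The series used Affymetrix arrays to measure expression in 3T3-L1 adipocytes, fat-storing cells grown from a mouse fibroblast line. Cultures received LA, the control, or c9t11 CLA, a conjugated linoleic acid. The labels do not spell out LA, a common abbreviation for linoleic acid. LA had 4 arrays at each time, numbered as biological replicates 1 to 4, and c9t11 CLA had 1 array at each time, both numbered 1. All 6 arrays compared here thus carry the same cell line and the same fatty acid. The labels do not say how the replicates were grown apart, give no genotype or differentiation day, and describe 1 cell line, so any p-value measures only the spread between these samples, which may be technical.

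In adipocytes, fat is made by pathways that build fatty acids and join them to glycerol, and it is stored in a droplet coated with perilipins. Cholesterol is made in the endoplasmic reticulum by a chain of enzymes whose genes are switched on together by the transcription factor SREBP2, and the membrane protein Insig1 holds the SREBP complex back when sterol is plentiful. Preadipocytes and fibroblasts surround themselves with collagens, fibronectin and small proteoglycans, and much of this matrix is remodelled as fat cells form.

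The promoters of Dpt and Tmem45a, which lay higher in replicate 2, and of 3 cholesterol genes that lay lower are shown here because the results turn on these genes. They are RefSeq windows of build GRCm38.p6, each 300 bases long, written 5′ to 3′ on the gene's strand. Insig1 lies at chr5:28071162-28071461 (+), Hmgcs1 at chr13:119690101-119690400 (+), Idi1 at chr13:8885356-8885655 (+), Dpt at chr1:164796413-164796712 (+) and Tmem45a at chr16:56886114-56886413 (-). Each holds 250 bases before the gene's start and 50 after it. Capitals mark exact matches, on either strand, to the sterol element TCACNCCAC, the CCAAT box CCAAT, the TATA box TATAAA and the E-box CACGTG.
Insig1: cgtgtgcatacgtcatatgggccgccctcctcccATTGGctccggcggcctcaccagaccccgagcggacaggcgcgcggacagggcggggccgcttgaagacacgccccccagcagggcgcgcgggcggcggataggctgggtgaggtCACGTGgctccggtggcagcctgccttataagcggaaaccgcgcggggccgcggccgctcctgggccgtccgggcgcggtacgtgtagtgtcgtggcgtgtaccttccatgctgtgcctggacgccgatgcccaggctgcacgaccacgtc
Hmgcs1: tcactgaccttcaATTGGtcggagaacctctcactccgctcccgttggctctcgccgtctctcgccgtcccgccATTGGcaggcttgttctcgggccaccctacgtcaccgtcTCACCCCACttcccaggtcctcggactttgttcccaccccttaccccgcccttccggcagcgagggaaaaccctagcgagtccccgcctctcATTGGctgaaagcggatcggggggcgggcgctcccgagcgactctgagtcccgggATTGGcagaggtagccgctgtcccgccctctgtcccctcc
Idi1: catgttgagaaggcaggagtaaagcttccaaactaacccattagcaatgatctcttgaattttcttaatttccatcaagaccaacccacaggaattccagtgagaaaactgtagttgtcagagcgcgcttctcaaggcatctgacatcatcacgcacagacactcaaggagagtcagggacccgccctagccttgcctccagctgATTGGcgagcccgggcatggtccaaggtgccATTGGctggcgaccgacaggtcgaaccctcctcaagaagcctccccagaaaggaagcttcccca
Dpt: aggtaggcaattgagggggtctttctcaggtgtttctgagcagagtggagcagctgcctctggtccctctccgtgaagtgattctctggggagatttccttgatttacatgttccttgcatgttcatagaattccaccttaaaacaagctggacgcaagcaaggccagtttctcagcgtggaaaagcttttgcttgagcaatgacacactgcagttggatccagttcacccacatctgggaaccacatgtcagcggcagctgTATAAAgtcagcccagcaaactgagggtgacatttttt
Tmem45a: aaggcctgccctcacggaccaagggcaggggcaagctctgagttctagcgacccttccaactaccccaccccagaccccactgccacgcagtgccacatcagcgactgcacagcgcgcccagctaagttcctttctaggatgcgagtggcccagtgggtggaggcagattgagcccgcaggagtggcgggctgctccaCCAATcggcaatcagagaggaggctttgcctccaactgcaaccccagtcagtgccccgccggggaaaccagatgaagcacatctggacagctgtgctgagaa

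A CCAAT box was found in 8 of the 9 windows available for the 11 cholesterol genes that lay lower in replicate 2, against 37.9% of the windows of all 27025 genes. The sterol element stood in 1 of those 9, that of Hmgcs1, against 1.22% of all. The E-box was found in 2 of the 9, those of Insig1 and Hsd17b7, against 7.24% of all, and no TATA box was found in them. Of the 13 matrix genes that lay higher, 7 had a window, of which 3 held a CCAAT box and 2, Dpt and Ogn, a TATA box (14.2% of all). The TATAAA letters of Dpt lie 12 bases past the gene's start, and the last CCAAT match of Hmgcs1 lies 10 bases past its start. A match is a description of these letters, not a bound site, and the motifs do not overlap one another in the windows shown.

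The culture labels were checked first. Adiponectin (Adipoq) stood between 12.68 and 13.14 and the fatty acid carrier Fabp4 between 12.90 and 13.19 in all 6 arrays, on the log2 intensity scale used throughout, so the fat cell genes were bright in every culture. Of the 7 mature adipocyte markers 5 were measured, and their summed intensity was 19248 to 20263 in the replicate 2 arrays and 20709 to 25884 in the other 4. Of the 19 preadipocyte and fibroblast markers 17 were measured, and their sum was 17394 to 17617 in replicate 2 and 9901 to 17477 in the others. Cd34, Gata3 and Wnt10b of that list were at the measurement floor in all 6 arrays. The floor, 3.84 on the log2 scale, is the level to which low or negative intensities were raised. All 7 endothelial markers were at the floor in all 6 arrays. So were 5 of the 9 macrophage markers (Cd68, Lyz2, Itgam, Ptprc and Tyrobp) and 5 of the 8 muscle markers (Myod1, Myog, Actc1, Myh3 and Myl1). Of the other muscle markers, Des was at the floor in replicate 2 and in replicate 4 at 12 h. In the remaining reference arrays Des stood at 5.07 to 6.07. Ckm and Tnnt2 were at the floor in replicate 2 and reached 4.39 and 4.79 among the reference arrays. In such bulk samples fewer cells of a type and less RNA per cell cannot be told apart.

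One of the reference arrays stood apart. LA replicate 4 at 12 h had a 3′ to 5′ signal ratio of 5.67 for the Actb control probe sets, against 1.45 to 2.60 in the other 5 arrays. For Gapdh its ratio was 1.42, against 0.81 to 0.92. The Actb ratio was 1.45 and 1.73 in replicate 2, 2.58 and 1.49 in replicate 3, and 2.60 in replicate 4 at 8 h. Both 8 h reference arrays thus lay above both replicate 2 arrays. A high ratio is a usual sign of shortened RNA. For the main results a value without replicate 4 at 12 h is given as well, which does not remove the difference in ratio at 8 h. The part of RNA quality in the differences was not tested. The 4 arrays numbered replicate 1 were dimmer, with a 75th percentile of intensity of 26.5 to 39.5 against 54.4 to 76.8 in the 6 arrays compared, so their values appear only beside the others.

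A gene was called separated when, at 8 h and again at 12 h, the replicate 2 array lay beyond both reference arrays of that time on the same side, and the mean difference was at least 2-fold. Of 10916 tested genes, 429 lay higher in replicate 2 (3.93% of those tested) and 320 lay lower (2.93%), or 6.86% in all. The comparison had been picked on these arrays, so nothing is read from these shares. When replicate 3 was set against replicates 2 and 4 by the same rule, 2.49% of genes lay higher and 1.91% lower (4.4% in all). For replicate 4 against replicates 2 and 3 the shares were 2.02% and 3.33% (5.35% in all), and these counts share arrays. Replicate 1 against replicates 3 and 4 gave 17.1% higher and 16.3% lower, with the dimmer arrays named above. Without any further scaling of the deposited values the split was 601 higher and 185 lower, and the median difference of all genes moved from -0.01 to 0.10. Leaving out replicate 2 at 8 h gave 378 higher and 214 lower, and at 12 h 666 and 677. For replicate 3 the counts were 464 and 382 without its 8 h array and 459 and 390 without its 12 h array. For replicate 4 they were 387 and 258, and 515 and 443. The background shares given with the lists below are those of all 6 arrays. With an array left out fewer arrays have to be cleared, so list counts under those settings go with the counts just given. Both replicate 2 arrays lay beyond all 8 other arrays of the series, replicate 1 and CLA included, for 276 of the 429 higher genes (2.53% of those tested) and 176 of the 320 lower ones (1.61%). In limma's moderated fit with time as a term, 24 genes lay higher (0.22%) and 2 lower (0.0183%) at an adjusted p under 0.05, 0.238% in all, and 17 of these 26 had all 4 reference arrays at the floor. Treating the replicate number as a random block left limma 4 calls (0.0366%), namely Tmem45a and 3 genes whose 4 reference arrays were at the floor. The limma calls rested on single arrays: without LA replicate 2 at 12 h there were 80 higher and 1 lower, and without any other of the 6 arrays 0 either way.

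Tmem45a, which encodes a transmembrane protein, was above the floor in all 6 arrays. It stood at 9.64 at 8 h and 9.26 at 12 h in replicate 2, at 6.81 and 6.48 in replicate 3, and at 6.79 and 6.35 in replicate 4. Both replicate 2 arrays lay far above the other 4, which were close to one another. The difference was 2.84 (SE 0.11), or 7.18-fold, and replicate 4 differed from replicate 3 by -0.07.

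Dpt encodes dermatopontin, a small matrix protein that binds decorin and helps collagen fibrils form. It stood at 11.04 and 11.03 in replicate 2, at 8.84 and 8.5 in replicate 3, and at 8.24 and 8.79 in replicate 4. The groups did not overlap, and the difference was 2.44 (SE 0.22), or 5.42-fold. Replicate 1 had Dpt at 8.12 and 8.5 with LA and at 8.06 and 8.89 with c9t11 CLA, close to the reference arrays.

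Scd1, the delta-9 desaturase that makes oleic acid, did not separate the cultures. Its levels were 12.63 and 12.90 in replicate 2, 13.06 and 13.02 in replicate 3, and 13.10 and 11.91 in replicate 4. The replicate 2 arrays lay below 3 of the 4 reference arrays and above replicate 4 at 12 h. The difference was -0.01 (SE 0.43) and became -0.31 without that array.

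**Figure D1:**
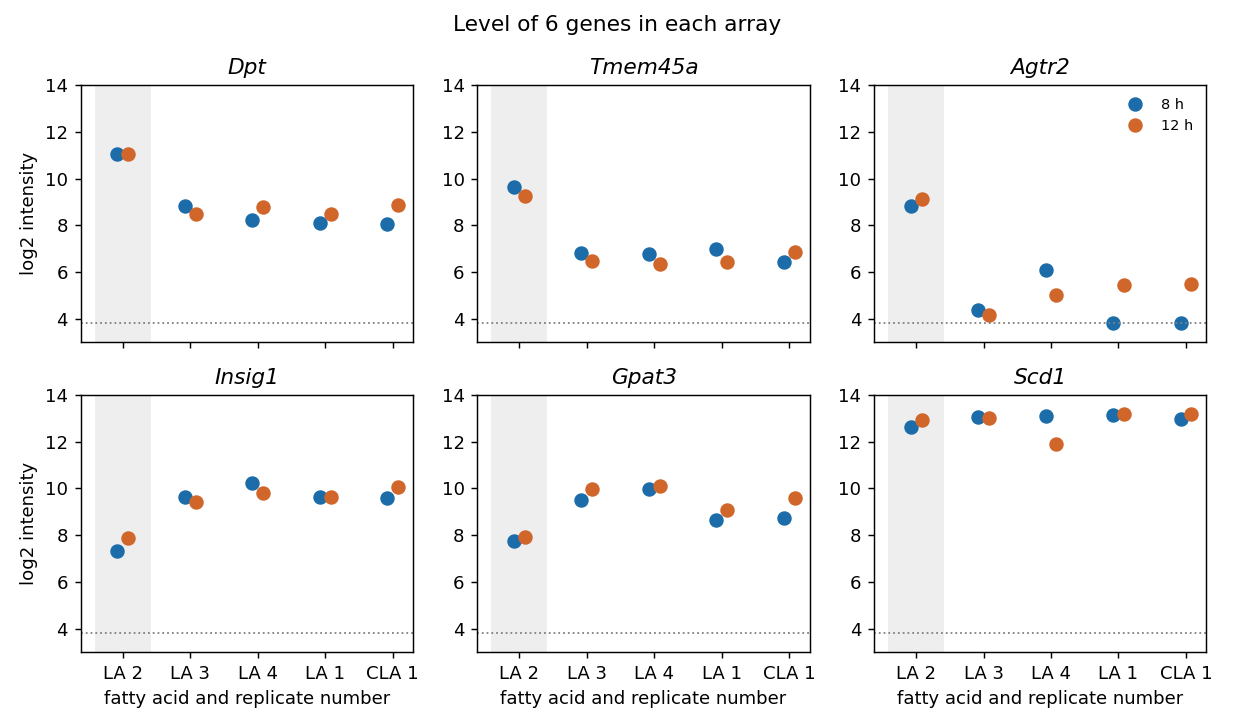
Level of 6 genes in each of the 10 arrays, as log2 intensity, by fatty acid and replicate number, with 8 h in blue and 12 h in orange; the grey band holds LA replicate 2 and the dotted line is the floor. Both replicate 2 arrays lay above all others for Dpt, Tmem45a and Agtr2 and below all others for Insig1 and Gpat3, and they overlapped the others for Scd1.

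Among separated genes with no array at the floor, Agtr2, the type 2 receptor of angiotensin, differed most. Its level was 8.82 and 9.14 in replicate 2, 4.37 and 4.18 in replicate 3, and 6.08 and 5.04 in replicate 4. Every replicate 2 value was higher by more than the whole range of the others, with a difference of 4.07 (SE 0.64). Stc1, the secreted glycoprotein stanniocalcin, stood at 7.52 and 7.53 against 4.08 to 5.53 in the other 4 arrays. Dpep1, a membrane dipeptidase, stood at 9.88 and 9.38 against 5.92 to 7.79, and Sulf2, which trims heparan sulphate, at 9.47 and 9.49 against 6.37 to 7.87. These groups did not overlap, with differences of 2.72, 2.61 and 2.42, but over the 3 bright probe sets of Sulf2 the difference ran from 0.0049 to 2.42. Fosl1, a member of the AP-1 family, also lay higher, by 2.43 (SE 1.37), and by 1.66 without replicate 4 at 12 h. Its reference cultures lay far apart, with replicate 4 minus replicate 3 at -3.22. E2f5 (2.79) and Cphx3 (2.64) complete the 10 with Tmem45a, Dpt and P4ha2, and the bright probe sets of E2f5 disagreed in sign.

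Some genes were above the floor in replicate 2 and at the floor in all 4 reference arrays. Aldh3a1, an aldehyde dehydrogenase, stood at 6.25 and 5.82 in replicate 2, a difference of at least 2.20 on the log2 scale. Clec14a (5.41 and 5.73) and Ceacam10 (7.10 and 4.13) were the others named, with differences of at least 1.73 and 1.78. Of the 429 higher genes, 12 were of this kind, and 322 had no array at the floor.

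The genes furthest below the reference cultures were of several kinds. Itih4, an inter-alpha-trypsin inhibitor heavy chain, stood at 4.61 and 4.54 in replicate 2, at 7.14 and 6.78 in replicate 3, and at 9.35 and 7.53 in replicate 4, a difference of -3.13 (SE 0.75). Replicate 2 lay lowest, and replicate 4 lay above replicate 3 by 1.48, so the size of the gap depends on the reference culture. Car2, a cytosolic carbonic anhydrase, stood at 6.85 and 7.15 against 8.99 to 9.93, and Mcam, a cell adhesion molecule, at 5.0 and 5.62 against 7.19 to 7.99. Neither gene's groups overlapped, and the differences were -2.47 (SE 0.30) and -2.43 (SE 0.35). Car2 also lay below the reference in replicate 1, at 6.06 and 7.35 with LA and at 6.55 and 7.99 with c9t11 CLA. Pnpla3, a lipid droplet hydrolase, differed by -2.73 (SE 1.06), and its replicate 4 level went from 9.85 at 8 h to 6.37 at 12 h. Ces1d, a carboxylesterase of the fat cell that breaks down stored lipid, differed by -2.32 (SE 0.87), the interferon-inducible Ifi27l2a by -2.52 (SE 0.96), and Ankef1, P2rx3 and Tmem182 by -2.51, -2.20 and -2.19.

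Lrrc39, Tspan33 and Maz were at the floor in both replicate 2 arrays, with reference levels of 5.74 to 7.14, 3.86 to 7.66 and 4.52 to 7.39. Their differences of -2.38, -2.16 and -2.11 are bounds, since the true gap was at least as large, and 1 of the 3 bright probe sets of Tspan33 differed by 0.00. Of the 320 lower genes 26 were at the floor in both replicate 2 arrays.

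**Figure D2:**
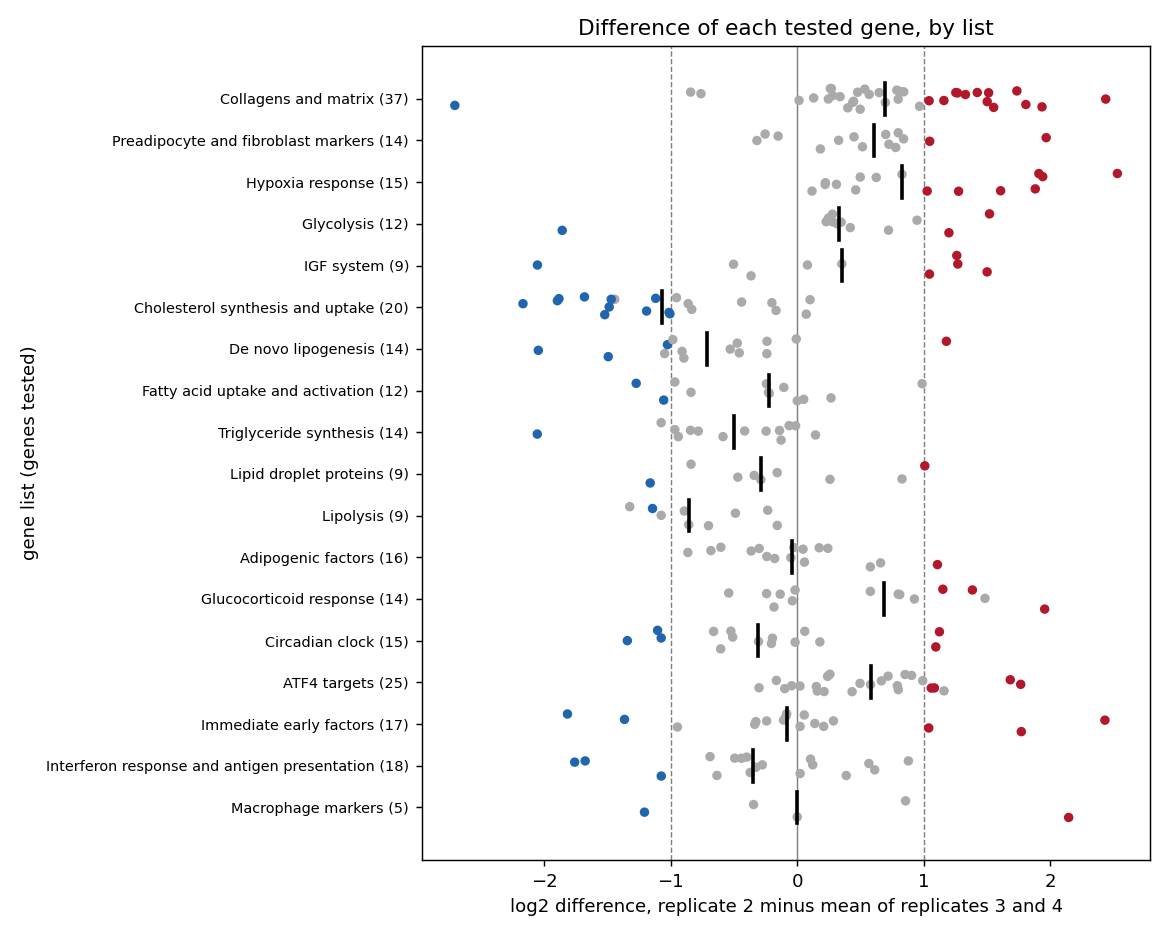
Log2 difference of replicate 2 from the mean of replicates 3 and 4 for each tested gene of 18 gene lists, 1 point a gene; red and blue points are separated genes, bars are list medians and dashed lines mark a 2-fold difference. Matrix and hypoxia genes lay mostly to the right and cholesterol and lipogenesis genes mostly to the left.

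Genes of cholesterol synthesis and uptake lay lower in replicate 2. Of 20 tested genes of that list 18 lay below the reference and 2 above, 11 were separated lower and none higher, and the median difference was -1.07, against -0.01 for all tested genes. The background of genes separated lower was 2.93%, and the list was drawn up with earlier results of these data known. The median was -0.95 against replicate 3 alone, -1.20 against replicate 4 alone and -1.22 without replicate 4 at 12 h. With each array left out it ranged from -1.35 to -0.83 and the count from 7 (without replicate 2 at 8 h) to 15 (without replicate 2 at 12 h).

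Insig1 stood at 7.34 and 7.86 in replicate 2, at 9.64 and 9.42 in replicate 3, and at 10.22 and 9.79 in replicate 4. The groups did not overlap, the difference was -2.17 (SE 0.30), and the 4 arrays of replicate 1 lay at 9.58 to 10.04 with the reference arrays. Hmgcs1, which makes HMG-CoA early in the pathway, stood at 8.94 and 9.17 against 9.79 to 10.58, a difference of -1.01 (SE 0.26). Replicate 1 arrays had Hmgcs1 at 7.82 to 8.90, lower than the reference too. Idi1, the isomerase of isopentenyl diphosphate, stood at 6.05 and 6.70 in replicate 2, at 7.36 and 7.98 in replicate 3, and at 9.33 and 8.42 in replicate 4, a difference of -1.90 (SE 0.64). Here too replicate 2 lay below every reference array, and replicate 4 lay above replicate 3 by 1.20. Replicate 1 arrays had Idi1 at 6.35 and 6.45 with LA and at 5.24 and 7.21 with c9t11 CLA, lower than the reference too.

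Later steps of the pathway were also low. Fdft1, squalene synthase, differed by -1.68 (SE 0.61), and Tm7sf2, a sterol reductase, by -1.88 (SE 0.80). Dhcr7, which makes cholesterol in the last step, stood at 6.51 and 6.66 against 7.78 to 8.23, a difference of -1.49 (SE 0.18) with little spread among the reference arrays. Fdps (-1.19), Pmvk (-1.52), Msmo1 (-1.12), Nsdhl (-1.01) and Hsd17b7 (-1.47), enzymes of the same chain, were the other separated members. For Pmvk, Tm7sf2, Msmo1 and Hsd17b7 replicate 4 at 8 h was the highest of the reference arrays.

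Genes of the extracellular matrix lay higher. Of 42 listed genes 37 were tested, 34 lay above the reference and 3 below, 13 were separated higher and 1 lower, and the median was 0.70. The background of genes separated higher was 3.93%. Against replicate 3 the median was 0.70, against replicate 4 it was 0.69, and it was 0.79 without replicate 4 at 12 h. With each array left out it ranged from 0.47 to 0.86 and the count higher from 9 (without replicate 2 at 8 h) to 15 (without replicate 2 at 12 h). The 2 reference cultures differed from each other by a median of -0.02 over the same genes.

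Col1a1, a chain of the main fibril collagen, stood at 12.16 and 12.05 in replicate 2, at 11.33 and 10.85 in replicate 3, and at 9.82 and 10.74 in replicate 4. The groups did not overlap, and the difference was 1.42 (SE 0.47). Fn1, fibronectin, stood at 11.28 and 11.13 against 9.20 to 10.65, and its highest reference value was that of replicate 4 at 12 h. The difference was 1.51 (SE 0.45) with that array and 1.85 without it. Ogn, the small proteoglycan osteoglycin, stood at 10.06 and 10.45 against 7.76 to 8.78, a difference of 1.94 (SE 0.40), while the 4 replicate 1 arrays had it at 4.51 to 6.45.

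Postn, periostin, a matrix protein of remodelling tissue, stood at 11.71 and 11.78 against 10.44 to 11.24, a difference of 1.04 (SE 0.25). Replicate 1 arrays had Postn at 6.25 to 8.71, far below both sets. The proteoglycan decorin (Dcn, 1.27), the crosslinking enzyme lysyl oxidase (Lox, 1.25), the fibulins Fbln1 (1.74) and Fbln2 (1.55) and the microfibril protein Mfap5 (1.81) lay higher as well. So did the matrix proteases Mmp2 (1.16) and Mmp14 (1.5) and the protease inhibitor Timp2 (1.33). Col3a1, another fibril collagen, differed by only 0.48 and was not separated. Col15a1, a basement membrane collagen, lay the other way: it stood at 3.84, the floor, and 4.01 in replicate 2 and at 6.15 to 6.93 in the reference arrays, a difference of -2.71 (SE 0.28).

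**Figure D3:**
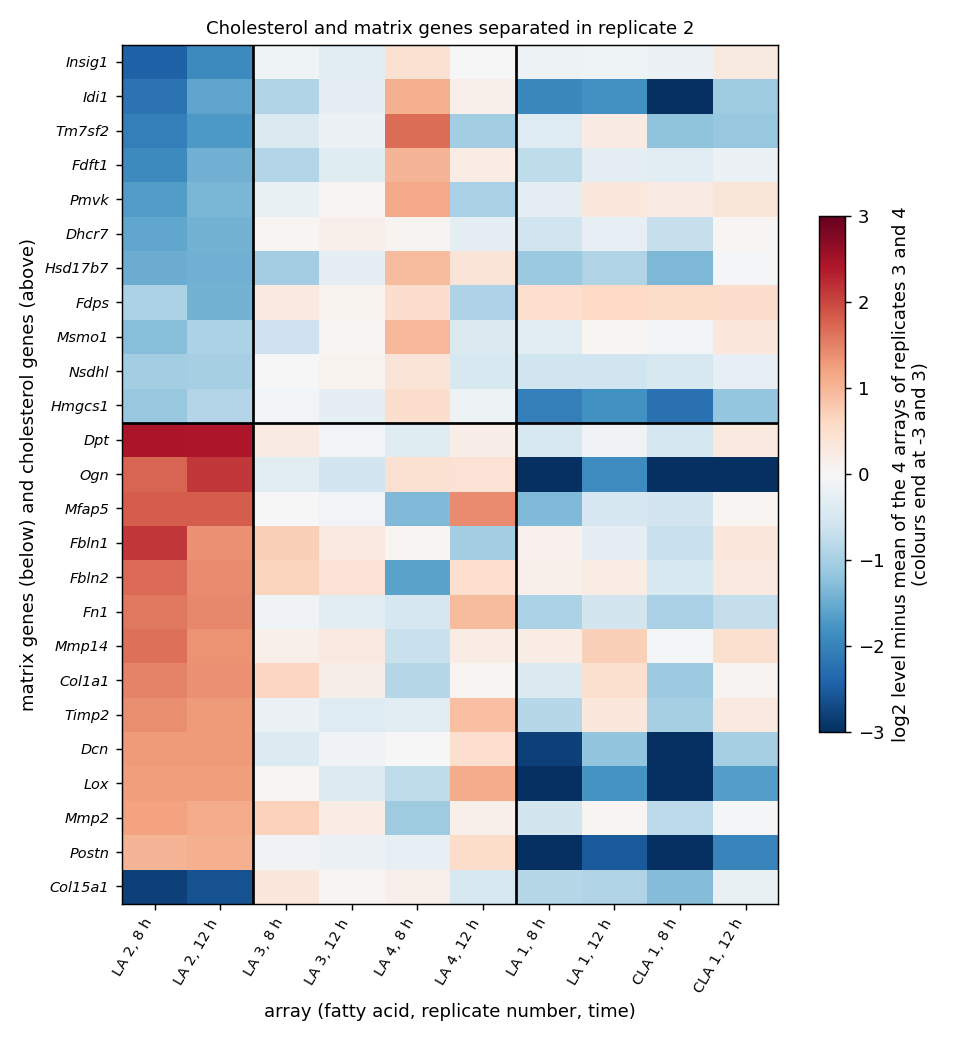
Log2 level of the separated cholesterol genes (above) and matrix genes (below) in each array, minus the mean of the 4 arrays of replicates 3 and 4; columns are arrays by fatty acid, replicate number and time, blue is lower and red is higher. The 2 replicate 2 columns were blue for all 11 cholesterol genes and red for 13 of the 14 matrix genes.

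Preadipocyte and fibroblast markers had a median of 0.61, and 11 of 14 tested lay above the reference, with 2 separated higher (background 3.93%). Without replicate 4 at 12 h 5 were separated. The count was 3 without replicate 2 at 12 h, 1 without replicate 2 at 8 h or replicate 4 at 8 h, and 1 without replicate 3 at 12 h, where the median was 0.37. The 2 were Fap, a surface protease of activated fibroblasts, and S100a4, a calcium-binding protein. Fap stood at 5.64 and 6.04 against the floor in 3 reference arrays and 3.98 in replicate 4 at 12 h. S100a4 stood at 11.80 and 11.86 against 10.32 to 11.82, so the sets overlapped at replicate 4 at 12 h. The difference was 1.05 (SE 0.47), or 1.39 without that array. Dlk1, the preadipocyte surface protein lost on differentiation, stood at 11.15 and 10.84 against 9.80 to 10.62, a difference of 0.80 (SE 0.27), and Thy1 differed by 0.70 (SE 0.51). Acta2, smooth muscle actin, differed by -0.55 (SE 0.91), with replicate 4 at 2.0 above replicate 3.

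Targets of the hypoxia-inducible factor lay higher: all 15 tested lay above the reference, 7 were separated (background 3.93%), and the median was 0.83. The median was 0.60 against replicate 3, 1.26 against replicate 4 and 0.45 without replicate 4 at 12 h, with 5 then separated. Replicate 1 against replicates 3 and 4 had a median of 0.80 over the same genes, so the shift was not particular to replicate 2. Over the 7 separated members that replicate 1 difference ran from 0.13 (P4ha1) to 1.51 (Ankrd37). P4ha2, a subunit of the collagen prolyl hydroxylase, stood at 9.53 and 9.21 in replicate 2, at 7.31 and 7.10 in replicate 3, and at 6.84 and 6.11 in replicate 4. Both replicate 2 arrays were clear of all 4, with a difference of 2.53 (SE 0.34). P4ha1, a sister subunit that also hydroxylates collagen, stood at 9.84 and 9.34 against 7.23 to 8.12, and Ndrg1, a gene induced by low oxygen, at 6.76 and 6.91 against 4.50 to 5.34. Their differences were 1.94 (SE 0.37) and 1.91 (SE 0.33). Ankrd37 (1.88), the oxygen sensor Egln1 (1.28), the oxidoreductase Ero1a (1.61) and the glucose transporter Slc2a1 (1.03) were the other separated members.

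Glycolytic genes had a median of 0.33, with 11 of 12 above the reference, 2 separated higher (background 3.93%) and 1 lower (2.93%). The median was 0.17 without replicate 4 at 12 h and 0.15 without replicate 2 at 12 h, and 0.52 without replicate 2 at 8 h or without replicate 3 at 12 h. Those separated higher numbered 1 without replicate 4 at either time. Replicate 1 against replicates 3 and 4 had a median of 0.62 over these genes, above that of replicate 2. Hexokinase Hk1 lay higher by 1.52 (SE 0.36). Pyruvate kinase Pkm lay higher by 1.20 (SE 0.75), which became 0.73 without replicate 4 at 12 h. Pfkfb3, which sets the activator of phosphofructokinase, stood at 5.34 and 5.69 against 6.90 to 7.58, a difference of -1.86 (SE 0.29), while its other bright probe set differed by -0.39.

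The genes of the insulin-like growth factor system lay in both directions: of 9 tested, 4 were separated higher (background 3.93%) and 1 lower (2.93%), and the median was 0.35. The median was 0.70 without replicate 4 at 12 h, 0.78 without replicate 2 at 12 h, and 0.13 without replicate 2 at 8 h or without replicate 3 at 12 h. Without replicate 2 at 8 h 2 were separated higher. Replicate 1 against replicates 3 and 4 had a median of 0.30 over these genes. Igf2, a growth factor, stood at 9.28 and 9.30 against 6.69 to 8.24, higher by 1.5 (SE 0.46), and the binding proteins Igfbp6 and Igfbp5 lay higher by 1.27 (SE 0.40) and 1.26 (SE 0.32). The reference levels of Igfbp6 and Igfbp5, 3.84 to 4.59, were near the floor. Igfbp3, another binding protein, stood at 3.96 and 3.98 against 5.43 to 6.64, a difference of -2.05 (SE 0.33). Igfbp4, named after its value was seen, lay higher by 1.05. Igf1 differed by -0.50 (SE 1.11), and replicate 4 lay 2.44 above replicate 3.

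Genes that make and store fat mostly lay lower as well. De novo lipogenesis had 13 of 14 genes below the reference, with 3 separated lower (background 2.93%) and 1 higher (3.93%) and a median of -0.71. Leaving out 1 array moved both: the median was -1.12 and 9 genes were separated lower without replicate 4 at 12 h, and -1.19 and 8 without replicate 2 at 12 h. Over all tested genes those separated lower also rose, from 320 to 443 and 677 under these 2 settings. Without replicate 2 at 8 h the list median and count were -0.36 and 1. In the list 2 genes were separated lower without replicate 3 at 12 h (with none then higher) or without replicate 4 at 8 h. Acss2, which makes acetyl-CoA from acetate, stood at 6.31 and 6.31 against 6.59 to 9.30, a difference of -1.49 (SE 0.66). Mlxipl, the glucose-sensing factor ChREBP, was at the floor in both replicate 2 arrays and at 4.15 to 6.69 in the others, a difference of -2.05 that is a bound. Acacb, an acetyl-CoA carboxylase, differed by -1.03 (SE 0.37), and the elongase Elovl6 lay higher by 1.18 (SE 0.34). Fasn, fatty acid synthase, stood at 10.50 and 10.58, below the 11.65 to 12.02 of 3 reference arrays and above the 10.40 of replicate 4 at 12 h, and differed by -0.90 (SE 0.45), or by -1.23 without that array.

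In triglyceride synthesis 13 of 14 genes lay below the reference, with 1 gene separated lower (background 2.93%) and a median of -0.50. The median was -0.79 without replicate 4 at 12 h, -0.21 without replicate 2 at 8 h and -0.29 without replicate 3 at 12 h. The count was 5 without replicate 4 at 12 h, 6 without replicate 2 at 12 h, 3 without replicate 3 at 8 h and 2 without replicate 3 at 12 h. The gene separated over all 6 arrays was Gpat3, which starts triglyceride synthesis by acylating glycerol phosphate. Gpat3 stood at 7.74 and 7.94 in replicate 2, at 9.52 and 9.96 in replicate 3, and at 9.99 and 10.12 in replicate 4. The reference arrays lay close together and clear of replicate 2, with a difference of -2.06 (SE 0.17), or 4.16-fold. The 4 replicate 1 arrays had Gpat3 at 8.66 to 9.57, above replicate 2, and the highest of them lay just above replicate 3 at 8 h.

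Among 12 genes of fatty acid uptake and activation the acyl-CoA synthetase Acsl3 (-1.27, SE 0.76) and the acyl-CoA binding protein Dbi (-1.06, SE 0.37) were separated lower (background 2.93%), with a list median of -0.22. None was separated lower without replicate 2 at 8 h or replicate 4 at 8 h, 1 without replicate 3 at 12 h, 3 without replicate 3 at 8 h or replicate 4 at 12 h, and 4 without replicate 2 at 12 h. Cd36, a fatty acid transporter, stood at 10.73 and 10.68 against 11.32 to 12.41 and differed by -0.97 (SE 0.35), just short of the 2-fold limit, while Lpl, the lipase that frees fatty acids from lipoproteins, differed by -0.22. Just past the limit lay Plin3, at 1.01, and Hmgcs1 and Nsdhl, at -1.01. Of the 9 lipid droplet proteins, seipin (Bscl2) was separated lower (-1.16, SE 0.47; background 2.93%) and Plin3, a coat protein, higher by 1.01 (SE 0.20; 3.93%). Neither was separated without replicate 2 at 8 h or without replicate 4 at 8 h, and none was separated higher without replicate 3 at 8 h. Their list median was -0.29 and changed sign when only the 12 h arrays were used. All 9 lipolysis genes lay below the reference with a median of -0.86, and Prkar2b, a regulatory subunit of protein kinase A, was separated (-1.14, SE 0.19; background 2.93%). Without replicate 4 at 12 h 6 were separated, without replicate 2 at 12 h 5, without replicate 3 at 8 h 2 and without replicate 2 at 8 h 0. Over all tested genes those separated lower numbered 443, 677, 382 and 214 under these settings, against 320 with all 6 arrays. The lipolysis median was -0.52 without replicate 2 at 8 h and -0.46 without replicate 4 at 8 h.

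At the probe sets used for their levels, the genes that mark a mature fat cell were not separated. Adipoq differed by -0.28 (SE 0.19), Fabp4 by -0.24 (SE 0.18) and Pparg, the master regulator of adipogenesis, by -0.30 (SE 0.32). Cebpa differed by -0.60 (SE 0.61), the insulin-regulated glucose transporter Slc2a4 by -0.48 (SE 0.71), hormone-sensitive lipase (Lipe) by -0.23 (SE 0.70) and the droplet protein Cidec by -0.34 (SE 0.84). The Fabp4 level given is that of its brightest probe set, which was tied at the highest normalized value, 13.19, in 3 of the 4 reference arrays, so a larger difference could not show there. Over its 4 bright probe sets the difference ran from -1.44 to -0.24. Adipoq, Lpl and Scd1 reached 13.14, 12.96 and 13.10 in the reference arrays, near that top value, so there was little room above them. For Adipoq and Fabp4 both replicate 2 arrays lay below all 8 other arrays of the series. For Cebpa, Slc2a4, Lipe and Cidec replicate 4 at 12 h was the lowest reference array, and without it the differences were -0.99, -1.01, -0.74 and -0.97. Leptin (Lep) was at the floor in 5 arrays and at 5.49 in replicate 4 at 8 h. The list of adipogenic factors had a median of -0.04, which lay on both sides of 0 under other settings. Of its 16 genes 1 was separated higher (background 3.93%), Cebpd, an early factor of differentiation, at 1.11 (SE 0.50). Replicate 4 minus replicate 3 was -1.17 for Cebpd, and replicate 1 against replicates 3 and 4 differed by 1.36, more than replicate 2. The bright probe sets of Cebpd, Slc2a4, Igf1 and Per3 disagreed in sign.

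**Figure D4:**
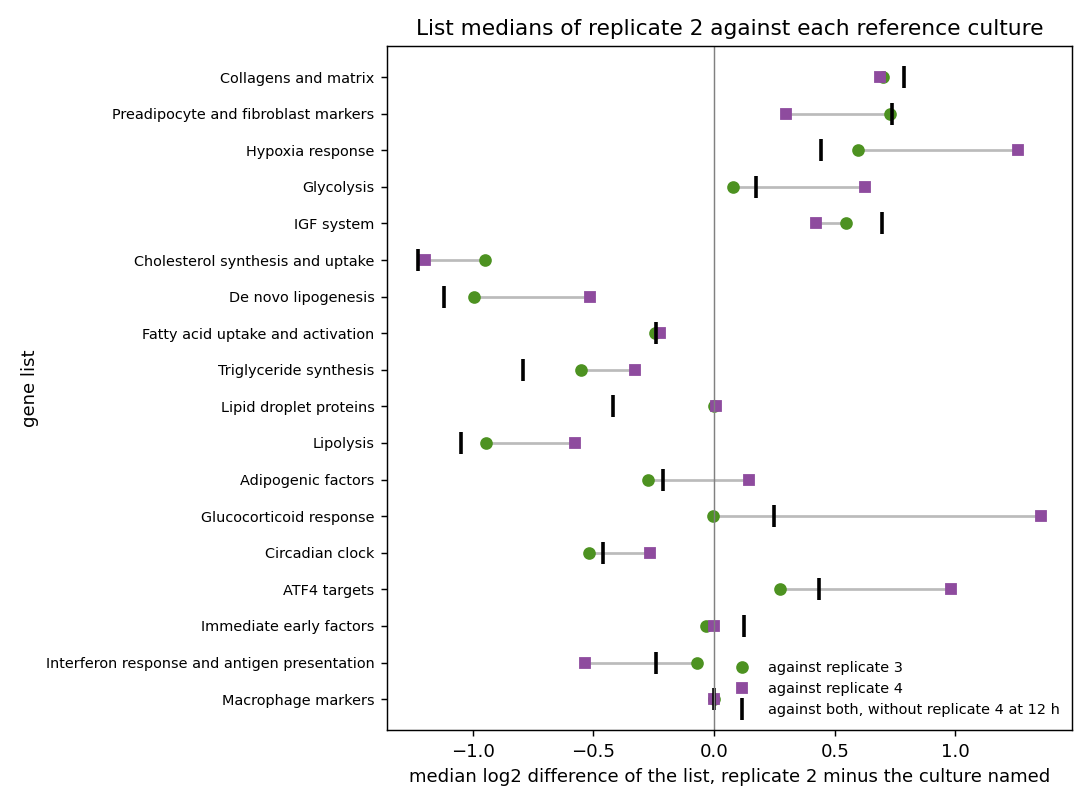
Median log2 difference of each of 18 gene lists between replicate 2 and replicate 3 (circles), replicate 4 (squares), and both without replicate 4 at 12 h (bars). Matrix medians were 0.70 and 0.69 and cholesterol medians -0.95 and -1.20 against the 2 reference cultures, while the glucocorticoid median was 0.00 against replicate 3 and 1.36 against replicate 4.

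Several stress and hormone lists differed from 1 reference culture more than from the other. Glucocorticoid response genes had a median of 0.69 and 3 of 14 genes separated higher (background 3.93%), but their median was 0.00 against replicate 3, 1.36 against replicate 4 and 0.25 without replicate 4 at either time. It was 0.42 without replicate 2 at 12 h and 1.04 without replicate 3 at 12 h. The count was 5 without replicate 3 at either time. Replicate 1 against replicates 3 and 4 had a median of 0.95 over these genes, above that of replicate 2. Tsc22d3, an anti-inflammatory glucocorticoid target, stood at 9.85 and 9.83 in replicate 2, at 8.88 and 9.04 in replicate 3, and at 7.41 and 6.21 in replicate 4. Replicate 4 differed from replicate 3 by -2.15, a larger size than the 1.96 (SE 0.96) between replicate 2 and their mean. The metallothionein Mt2 (1.39, SE 0.96) showed the same order of cultures, and the kinase Sgk1 stood at 8.71 and 8.84 against 6.57 to 8.16 (1.15, SE 0.41).

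Targets of ATF4, the factor of the amino acid and unfolded protein stress responses, had a median of 0.58, with 21 of 25 above the reference and 4 separated higher (background 3.93%). Without replicate 4 at 12 h the median was 0.43 and 1 was separated, and the count was 8 without replicate 3 at 12 h. The median was 0.27 against replicate 3 and 0.98 against replicate 4. For replicate 1 against replicates 3 and 4 it was 1.19, above that of replicate 2. The amino acid transporter Slc7a5 (1.77, SE 1.33) and Ddit4, an inhibitor of growth signalling (1.68, SE 0.99), had replicate 4 far below replicate 3, with differences of -3.14 and -2.04 between those cultures. Slc3a2, the partner of Slc7a5 (1.08, SE 0.24), and Ddit3, the factor CHOP (1.06, SE 0.28), had tighter reference arrays. Trib3, an ATF4 target, stood at 7.37 and 7.28, within the 4.27 to 7.5 of the reference arrays, and differed by 1.16 (SE 0.98).

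Immediate early factors differed in both directions, with 3 of 17 separated higher (background 3.93%), 2 lower (2.93%) and a list median of -0.08 that changed sign under other settings. Replicate 1 against replicates 3 and 4 had a median of 0.97 over these genes. Jun, an AP-1 subunit, stood at 7.77 and 7.56 against 5.51 to 6.41, a difference of 1.77 (SE 0.30). The 4 replicate 1 arrays had Jun at 6.95 to 7.54. Of the AP-1 family Fosl1 lay higher too, as it did in replicate 1 against replicates 3 and 4 (1.95), while Fos and Junb lay lower in replicate 2. Fos was at the floor in both replicate 2 arrays and at 4.68 to 7.37 in the others, and Junb stood at 3.98 and 3.90 against 4.71 to 6.37. Their differences were -1.82 and -1.37, and the first is a bound. Klf2, the third higher gene beside Fosl1, was named after its value was seen and differed by 1.04.

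Of the 15 circadian genes tested, 3 were separated lower (background 2.93%) and 2 higher (3.93%). Those separated lower numbered 1 without replicate 4 at 8 h and 2 without replicate 4 at 12 h, and those higher 1 without replicate 4 at 12 h or without replicate 2 at 12 h. The repressor Nr1d2 (-1.34, SE 0.60) and Per3 (-1.10, SE 0.35) lay lower. Bhlhe40, a repressor of clock genes (1.10, SE 0.51), lay higher, and Hlf stood at 4.95 and 4.97 with all reference arrays at the floor, a difference of at least 1.12. The third lower gene, Dbp, a clock-controlled factor named here after its value was seen, differed by -1.08 (SE 0.58). Interferon response genes had 3 of 18 separated lower (background 2.93%) and a median of -0.35, of -0.07 against replicate 3 and of -0.53 against replicate 4. It ranged from -0.55 to -0.12 with each array left out, lowest without replicate 2 at 12 h and highest without replicate 4 at 8 h, and was -0.15 without replicate 2 at 8 h. Usp18, which dampens interferon signalling, stood at 4.19 and 4.74 against 6.04 to 6.44, a difference of -1.76 (SE 0.26), while Gbp2 (-1.68, SE 0.91) and Ifit1 (-1.08, SE 0.56) varied more between the reference cultures. The chemokine Ccl2 stood at 5.26 and 4.82, above replicate 3 and below the 9.29 and 7.71 of replicate 4.

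Of the 9 macrophage markers 5 were tested, with 1 separated in each direction (background 3.93% higher and 2.93% lower). Csf1r, a growth factor receptor of macrophages, stood at 8.23 and 8.12 against 5.49 to 7.25, but its other bright probe set differed by -0.01. Cd14, a lipopolysaccharide co-receptor, was at 3.96 and 3.84 against 4.42 to 5.99. Adgre1 was above the floor in all 6 arrays, at 4.24 to 5.09, and differed by -0.35. Laptm5 stood at 4.72 and 5.12 in replicate 2 against 3.84 to 4.42, a difference of 0.86. The summed intensity of the list was 417 to 435 in replicate 2 and 177 to 336 in the reference arrays. The 5 genes named above were at the floor, and the part of this list in the other differences was not tested.

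The change from 8 h to 12 h asked whether replicate 2 also responded differently over time. It was tested with limma as the difference between the change in replicate 2 and that in replicates 3 and 4, and the lone replicate 2 array at each time was assumed to vary like the others. No gene passed (0% called, lowest adjusted p 0.115 from limma), while 298 genes (2.73%) had an unadjusted p under 0.05 in limma's fit. With the replicate number as a fixed block 0 genes passed and 317 (2.9%) had an unadjusted p under 0.05. The count depended on dim genes: with no filter on them 416 passed, of which 384 had all 4 reference arrays at the floor. Replicate 2 had 86 genes at least 2-fold higher (0.788%) and 137 at least 2-fold lower (1.26%) at 12 h, counts that rest on 1 array at each time. The corresponding counts were 64 (0.586%) and 60 (0.55%) in replicate 3. They were 664 (6.08%) and 828 (7.59%) in replicate 4, and 510 (4.67%) and 408 (3.74%) in replicate 1.

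The genes with the smallest p lay at or near the floor. Nodal, a signalling ligand, went from 5.66 to the floor in replicate 2, with all 4 reference arrays at the floor, and the trypsinogen gene Prss2 from 6.13 to 3.96. Ptpn13, a protein phosphatase, went from the floor to 5.40 with the reference arrays at or near the floor. Rassf10 (-1.74), Miat (1.17) and Slc25a48 (0.77) were of the same kind, each with an adjusted p of 0.115 in limma's fit. Of the 78 separated genes named by rule, 5 differed at least 2-fold between times in replicate 2, and the median size of the change was 0.22. They were Ceacam10 (-2.97, with an adjusted p of 0.115 in limma's time test), Cphx3 (-1.83), E2f5 (-1.48), Ankef1 (1.13) and Igfbp6 (-1.03). Tmem45a differed by -0.38 between times, Dpt by 0.00, Agtr2 by 0.32, Insig1 by 0.52, and P4ha2 by -0.32.

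**Figure D5:**
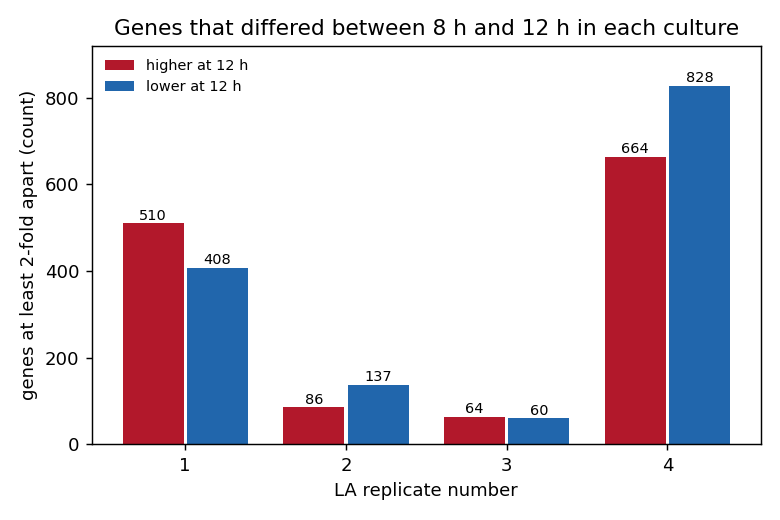
Number of tested genes at least 2-fold higher (red) or lower (blue) at 12 h than at 8 h in each LA replicate number, 1 array at each time. Replicate 2, with 86 and 137 genes, and replicate 3, with 64 and 60, had fewer such genes than replicate 4, with 664 and 828.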

How the data were processed

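Total RNA was extracted with Trizol and biotin-labelled cRNA was made from 15 ug, per the labels' protocols. The deposited table holds 1 intensity per probe set and array on a linear scale, with negative values. The authors' software and scaling are not given in the sources used here, and their deposited table of pooled ratios was not used.

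Of 45101 probe sets, 64 controls were left out, 34945 with 1 gene symbol were used, and 932 with several and 9160 with none were not. Symbols came from the platform annotation, 34741 updated through RefSeq gene identifiers. Intensities were quantile normalized over 10 arrays, raised to a floor of 14.3 (the size of the 2nd percentile) and put on the log2 scale. For each of 18193 genes the brightest probe set was kept, and the 7277 genes in the lowest 40% were dropped, leaving 10916. Of their values in the 6 arrays 11.3% lay at the floor. Precision is limited by the number of arrays and of replicate numbers: a 95% interval reached 0.72 to each side in the median gene. This interval and the SE given in the text treat the 6 arrays as independent, although same-numbered arrays were correlated. With the number as a random block the SE was 0.26 rather than 0.22 for Dpt. It was 0.34 rather than 0.30 for Insig1 and 0.18 rather than 0.17 for Gpat3.

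Differences, SE, intervals and p-values were computed in R 4.3.3 with limma 3.58.1, using lmFit with terms for replicate 2 and time and a trended eBayes. Tests were two-sided and adjusted by Benjamini-Hochberg over all tested genes, and the fits were checked on simulated data. The simulated arrays were independent and had no floor, so that check does not cover the pairing of arrays or genes at the floor. Matplotlib 3.10.9 with numpy 2.4.6 drew the figures.

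Same-numbered LA arrays at 8 h and 12 h correlated across genes, after time means were removed, at 0.855, 0.779, 0.503 and 0.553 for numbers 1 to 4. The highest correlations with another number were -0.124, 0.238, 0.284 and 0.284. The numbers therefore pair the arrays, and a fit with the number as a block was made. Spearman correlations between the 6 arrays were 0.853 to 0.912, and 0 values were identical between the replicate 2 arrays.

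The members and the 40 gene lists, of which 18 are described, were chosen with earlier results of these data known. Genes named are a set always named, the 10 separated genes above the floor with the largest difference each way, 3 bounds each way, up to 4 separated members of each list, and 3 genes each way with the smallest p over time. Other named members were chosen after their values were seen. Other settings tried were the scaling, the floor, the filter, the rule for probe sets, the variance and block, the size of separation and each array left out.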

Additional observations from a re-analysis of the deposited data

Results flagged for a closer look

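Of 196 groups of 4 LA arrays (98 named genes at 2 times), 17 held an array far from the other 3 by Dixon's rule, or 8.67%. Chance flags about 1 in 20 groups, and many of these genes were named for their difference in replicate 2. The array that stood apart was of replicate 2 in 14 groups, of replicate 4 in 3 and of replicate 1 or 3 in 0.

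High in replicate 2 were Dpt at 12 h (11.03, next highest 8.79), Tmem45a at 8 h (9.64, next 7.01) and at 12 h (9.26, next 6.48), and Aldh3a1 at 8 h (6.25, next 4.08). The others had the remaining 3 arrays at or near the floor of 3.84. They were Ceacam10 at 7.10 and 4.13, Clec14a at 5.41 and 5.73, Fap at 5.64 and 6.04, and Hlf at 4.95 and 4.97, at 8 h and 12 h. Low in replicate 2 at 8 h were Scd1 (12.63, next lowest 13.06) and Fabp4 (12.90, next 13.19). The other 3 Fabp4 arrays were tied at the highest normalized value, so any lower value would have been marked, and the same holds for genes with the other 3 arrays tied at the floor.

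The other 3 were arrays of replicate 4. Pparg at 8 h was high (10.78, next 10.02), as was Lep at 8 h (5.49, the others at the floor). Mt2 at 12 h was low (8.08, next lowest 10.96), in the array with the high Actb ratio, whose part was not tested.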

How the results depend on the processing

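The genes called by limma depended on nearly every setting, so the text rests on levels and separation. Against 24 higher and 2 lower, calls were 14 and 0 with median centring, 0 and 0 with the deposited scaling, with quantile normalization over the 6 arrays, with each number as 1 unit and without a variance trend. They were 1 and 0 with the floor at 0.5 times or the lowest 60% left out, 11 and 0 with no filter, 13 and 5 with all 8 LA arrays, and 4 and 0 with a random replicate block. The lower count was 1 with the lowest 20% left out or the mean of probe sets. Leaving out each array in turn gave 0 to 80 higher and 0 to 1 lower.

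Separated genes, 429 higher and 320 lower, numbered 601 and 185 with the deposited scaling, 289 and 211 with the lowest 60% left out, and 278 and 180 with the mean of probe sets. They numbered 666 and 677 at 8 h alone, that is, without LA replicate 2 at 12 h, 1038 and 1070 at 1.5-fold, and 31 and 19 at 4-fold. Leaving out each array gave 378 to 666 higher and 214 to 677 lower.

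The time difference, with 0 calls, gave 204 with the floor at 2 times, 387 with the lowest 20% left out, 416 with no filter and 145 with the median of probe sets. Of these, 179, 355, 384 and 128 had all 4 reference arrays at the floor. With the replicate number as a fixed block it gave 0 calls.

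The differences of E2f5 (-0.034) and Csf1r (-0.0068) reversed with the median of probe sets. The lipid droplet median reversed to 0.065 at 12 h alone, and ranged from -0.641 to 0.065 with each array left out (0.065 without LA replicate 2 at 8 h, 0.017 without LA replicate 3 at 12 h). The causes were not tested. Over 22 settings the 78 separated named genes gave 1695 values, of which 2 reversed and 133 moved by more than 1 SD. Over 11 settings of scaling, floor, filter and probe set rule the matrix median was 0.47 to 0.79, the cholesterol median -1.17 to -0.70 and the hypoxia median 0.73 to 0.96. Signals near the floor limit the low genes, whose differences are bounds.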

Other observations

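Mitochondrial genes lay slightly lower in replicate 2. All 27 tested respiratory chain genes lay below the mean of replicates 3 and 4, with a median difference of -0.30 on the log2 scale, and 0 were separated. Cytochrome c (Cycs), the electron carrier, stood at 11.78 and 12.23 in replicate 2 against 12.79 to 12.97 in the other 4 arrays. Fatty acid oxidation had 18 of 20 genes below the reference and a median of -0.41, and Hadhb, a subunit of the trifunctional protein, stood at 10.17 and 10.57 against 11.21 to 11.60. Branched-chain amino acid breakdown had 15 of 18 genes below and a median of -0.54, with Hibch, a valine pathway hydrolase, separated lower (-1.15). The citric acid cycle had 14 of 17 below and a median of -0.48, but Idh2, the mitochondrial NADP-dependent isocitrate dehydrogenase, lay higher, by 1.13 (SE 0.30), and was separated. These 4 genes were named after their values were seen, and the background of genes separated lower was 2.93%.

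Cell cycle genes lay slightly higher, with 22 of 26 above the reference and a median of 0.37, and 0 were separated. The median was 0.73 at 8 h, 0.05 at 12 h and 0.69 without replicate 4 at 12 h. Top2a, a topoisomerase of dividing cells, also chosen after its value was seen, stood at 7.65 and 7.82 in replicate 2, at 6.68 and 6.61 in replicate 3, and at 5.73 and 8.30 in replicate 4. Ribosomal protein genes had 13 of 14 above the reference, with a median of 0.28 and 0 separated. Proteasome and splicing genes had medians of -0.09 and -0.21, and endoplasmic reticulum chaperones one of 0.26. Adipokines had a median of 0.25, which was -0.20 at 8 h, 0.55 at 12 h, -0.08 against replicate 3 and 0.08 without replicate 4 at 12 h. Lcn2, named after its value was seen, was 11.14 and 11.19 in replicate 2, 11.71 and 11.60 in replicate 3, and 8.49 and 9.68 in replicate 4. The inflammation list had a median of -0.08, of 0.68 against replicate 3 and of -0.83 against replicate 4.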
